A study of Gallus gallus with 5 samples.

Results

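The nuclear genes of mitochondrial oxidative phosphorylation were examined in chicken DT40 cells. They were chosen by gene symbol and not by their signal. A probe set was taken where its single symbol starts with NDUF, UQCR or ATP5, is one of the SDH subunits or CYC1, or names a numbered COX subunit of complex IV. The rule gave 133 of 38439 probe sets and 74 of 13009 named genes. Complex I had 34 of these genes, its named assembly factors 8, complex II 2, complex III 8, complex IV 8 and complex V 14. Of the members, 118 probe sets and 73 genes passed the filter on dim probe sets and were tested among 23053 probe sets.

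Oxidative phosphorylation takes place in the inner mitochondrial membrane. Complexes I and II pass electrons from NADH and succinate to ubiquinone, complex III passes them on to cytochrome c, and complex IV hands them to oxygen. Complexes I, III and IV pump protons as they do so, and complex V, the ATP synthase, uses the returning protons to make ATP. Most subunits are encoded in the nucleus, and a small core is encoded in mitochondrial DNA, so the complexes are built from the products of both genomes.

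Total RNA from exponentially growing DT40 cells, a chicken B cell line from a bursal lymphoma, was hybridised to 5 Affymetrix chicken arrays. By their labels, 2 arrays carried RNA of cells that lack the linker histone H1R, 1 of cells that lack H1L and 2 of wild-type cells (WT). H1 proteins sit on the linker DNA that joins nucleosomes, and the question was which transcripts change when 1 variant is lost. All groups were grown in the same RPMI 1640 medium with 2-mercaptoethanol, fetal calf serum and chicken serum, and the labels do not give clones or say whether replicates were separate cultures. The p-values therefore reflect the spread among these arrays and nothing more, and that spread may be technical. The H1L-labelled array has no replicate.

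The probe set of HIST1H111R read 28.9 and 7 on the H1R arrays, 42.2 on the H1L-labelled array and 36.1 and 39.4 in WT. HIST1H111L read 981.8 and 2372 on the H1R arrays, 2295.3 on the H1L-labelled array and 1320 and 2034.8 in WT, so its signal was not low on the H1L-labelled array. On replicate 1 of H1R, HIST1H111R also lay above that array's background limit of 18, while replicate 2 lay below its limit of 33.6. The labels do not tie either gene to the deleted variants. H1R stands below for the arrays labelled so, and every direction rests on the labels. A date code in the sample descriptions puts replicate 1 of H1R and of WT on a first date and the other 3 arrays on a second. As a sign of RNA quality, the actin ratio (3' over 5' probe set) was 3.87 and 2.25 for H1R, 2.01 for the H1L-labelled array and 2.81 and 2.02 for WT. Of 11 B cell markers on the array, 10 lay above the background limit on all 5 arrays. Of 7 erythroid markers 0 did, and of 9 T cell markers 2 did, CD3D and CD247, while LCK, CD4 and ZAP70 were at background on every array. Of 7 myeloid markers 2 did, SPI1 and CTSS, and of 10 fibroblast markers 2 did, FN1 and COL3A1. In H1R the B cell marker CD79B fell, and CD5, MMP9 and MMP2 from the T cell, myeloid and fibroblast lists rose (limma adjusted p = 0.02, 0.0098, 0.027 and 0.0012). These single genes do not stand for their lists. The median log2 fold change was 0.105 for the B cell list (11 tested genes) and -1.13 for the T cell list (5 tested genes). It was 0.418 for the myeloid list (5 tested genes) and 0.168 for the fibroblast list (7 tested genes). Unlike CD5, CD3D and CD247 were lower in H1R (-1.73 and -1.13), and so was the myeloid marker CTSS (-1.17). Whether such differences bear on the genes below was not tested. In such bulk samples, fewer cells of a type and less RNA per cell cannot be told apart.

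Oxidative phosphorylation genes were widely detected. A background limit was set on each array at the highest signal of 23 control probe sets with no chicken target, which was 18 and 33.6 on the H1R arrays, 23 on the H1L-labelled array, and 29.2 and 21.4 in WT. Of the 133 member probe sets, 93 (69.9%) lay above it on all 5 arrays, against 35% of all probe sets. Each gene was represented by its probe set with the highest mean signal, and 71 of 74 genes (95.9%) were above the limit on all 5 arrays in that probe set. The exceptions were ATP5G2, a ring subunit of the ATP synthase, ATP5J, a subunit of its stalk, and COX7B, a small subunit of complex IV. COX7B read 6.8 and 7.8 on the H1R arrays, 11.8 on the H1L-labelled array and 1.5 and 10.4 in WT, below the limit on every array, and was not tested.

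**Figure D1:**
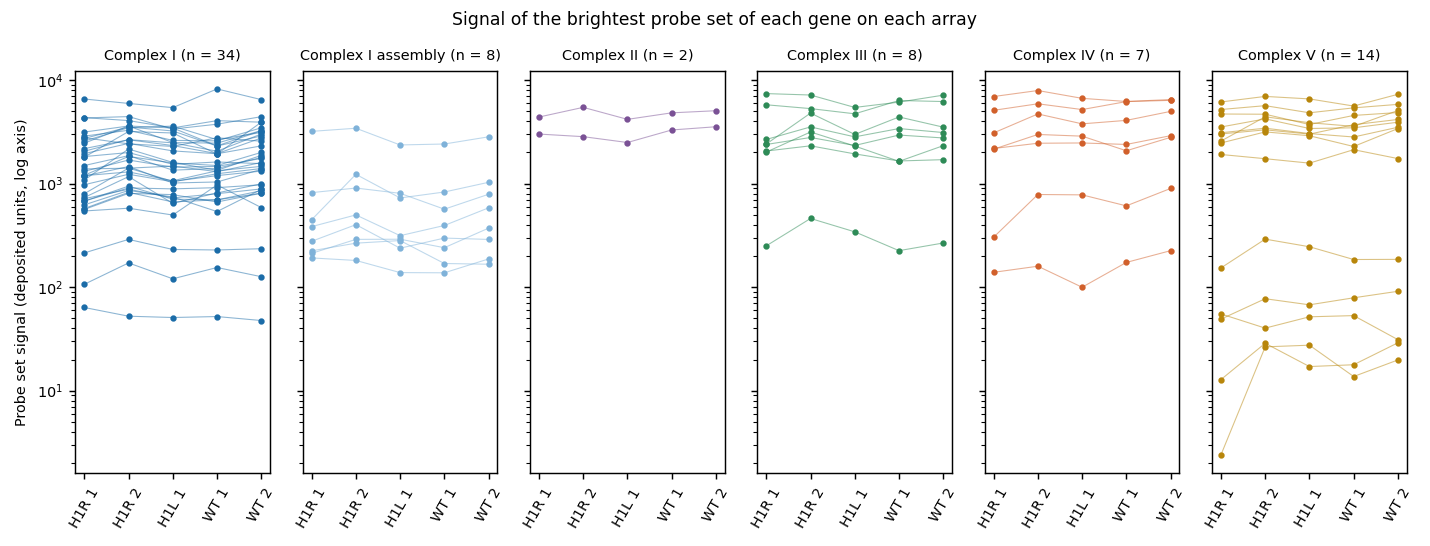
Signal of the 73 tested genes on each array, in deposited units on a log axis, with a panel per complex and a line joining the arrays of 1 gene (levels of different genes come from different probe sets and are not comparable). The lines that reach lowest are ATP5G2 and ATP5J in the panel of complex V.

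In H1R against WT, no oxidative phosphorylation probe set passed the threshold (limma, Benjamini-Hochberg adjusted p below 0.05 over all 23053 probe sets). This was 0 of 118 member probe sets, where 1.17% of all tested probe sets were called. At an unadjusted p below 0.05, 2 of 118 members were found, against 10.2% of all probe sets, and both were dim probe sets of NDUFA12 and UQCRFS1. The median log2 fold change of the 73 genes was -0.04, where the median of all probe sets was 0.09, and the genes lay between -0.59 for COX8A and 0.53 for NDUFAF7. Of the 73 genes, 34 lay above 0 and 39 below. Of the 118 member probe sets, 69 lay above 0 and 49 below, with a median of 0.0537. Of all 23053 tested probe sets, 13488 lay above 0 and 9565 below. The sign of the median of the 73 genes was not stable and turned in 3 of 17 settings. The median was 0.13 when H1R lacked its replicate 1, 0.10 when WT lacked its replicate 2 and 0.05 when all tested probe sets of a gene were averaged. After quantile normalization it stayed below 0, at -0.12 against 0.01 for all probe sets. After median scaling it was -0.10. The median absolute log2 fold change was 0.176 for the 73 genes, against 0.311 for all probe sets and 0.259 for probe sets above the limit on all 5 arrays. The genes were far brighter than most probe sets. Neither these values nor the intervals below were set against probe sets of matching signal.

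The standard error had a median of 0.255 for the 73 genes, read by their brightest probe sets, and 0.378 for all probe sets. By probe set it was 0.313 for the 118 members, against 0.327 for probe sets above the limit on all 5 arrays. The fit lets the spread follow the signal, so taking the brightest probe set bears on the first value. The 95% interval of the fold change of H1R against WT lay wholly within 1 log2 unit of no difference for 57 of 73 genes (78.1%), against 27.5% of all probe sets and 44.4% of those above the limit on all 5 arrays. In complex I this held for 32 of 34 genes, and among the 118 member probe sets for 69 (58.5%). A log2 fold change above 1 in size was found for 0 of the 73 genes by brightest probe set, for 3 of their 118 probe sets (2.54%), for 4.26% of probe sets above the limit on all 5 arrays and for 9.2% of all. For the genes inside these bounds, a log2 difference of 1 lay outside the interval. How far smaller differences did so varied by gene, with intervals of -0.40 to 0.39 for ATP5H and -0.14 to 0.59 for COX4I1. In this fit, which leaves out the date code, differences inside a gene's interval could not be told from none.

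For the H1L-labelled array against WT, again 0 of 118 member probe sets passed, where limma called 0.200% of all. At an unadjusted p below 0.05 there were 3 of 118, against 6.89%: the brightest probe set of COX5A and dimmer ones of NDUFB4 and ATP5J2. The median log2 fold change of the 73 genes was -0.15, against -0.05 for all probe sets. After quantile normalization, which removes differences of scale between arrays, the medians were -0.05 and 0.01. Without replicate 2 of WT the members' median was -0.03. The 95% interval lay within 1 log2 unit of no difference for 46 of 73 genes (63%), against 11.8% of all probe sets. For probe sets above the limit on all 5 arrays this share was 20.1%, and for the 118 member probe sets it was 45.8%.

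The H1L-labelled array and the H1R arrays were also set against each other. In this comparison 0 of 118 member probe sets passed and 4 had an unadjusted p below 0.05, where 0.00434% and 5.54% of all probe sets did. The 4 were probe sets other than the brightest of NDUFB3, NDUFB4, UQCRFS1 and ATP5J2, each lower on the H1L-labelled array. The median log2 fold change of the 73 genes was -0.10, against -0.15 for all probe sets, and after quantile normalization it was 0.11, against 0.00 (-0.00438) for all. Normalization thus moved the median of all probe sets by over 0.1 here and turned the sign of the members' median, which was 0.02 after median scaling. Intervals lay within 1 log2 unit for 47 of 73 genes (64.4%), against 10.2% of all probe sets.

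With the date code as a block, which sets replicate 1 of H1R and WT against the other 3 arrays, 0 member probe sets passed in any of the 3 comparisons. The block raised the share called over all probe sets to 3.70% for H1R against WT, 0.508% for the H1L-labelled array against WT and 0.134% between the 2 deletions.

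**Figure D2:**
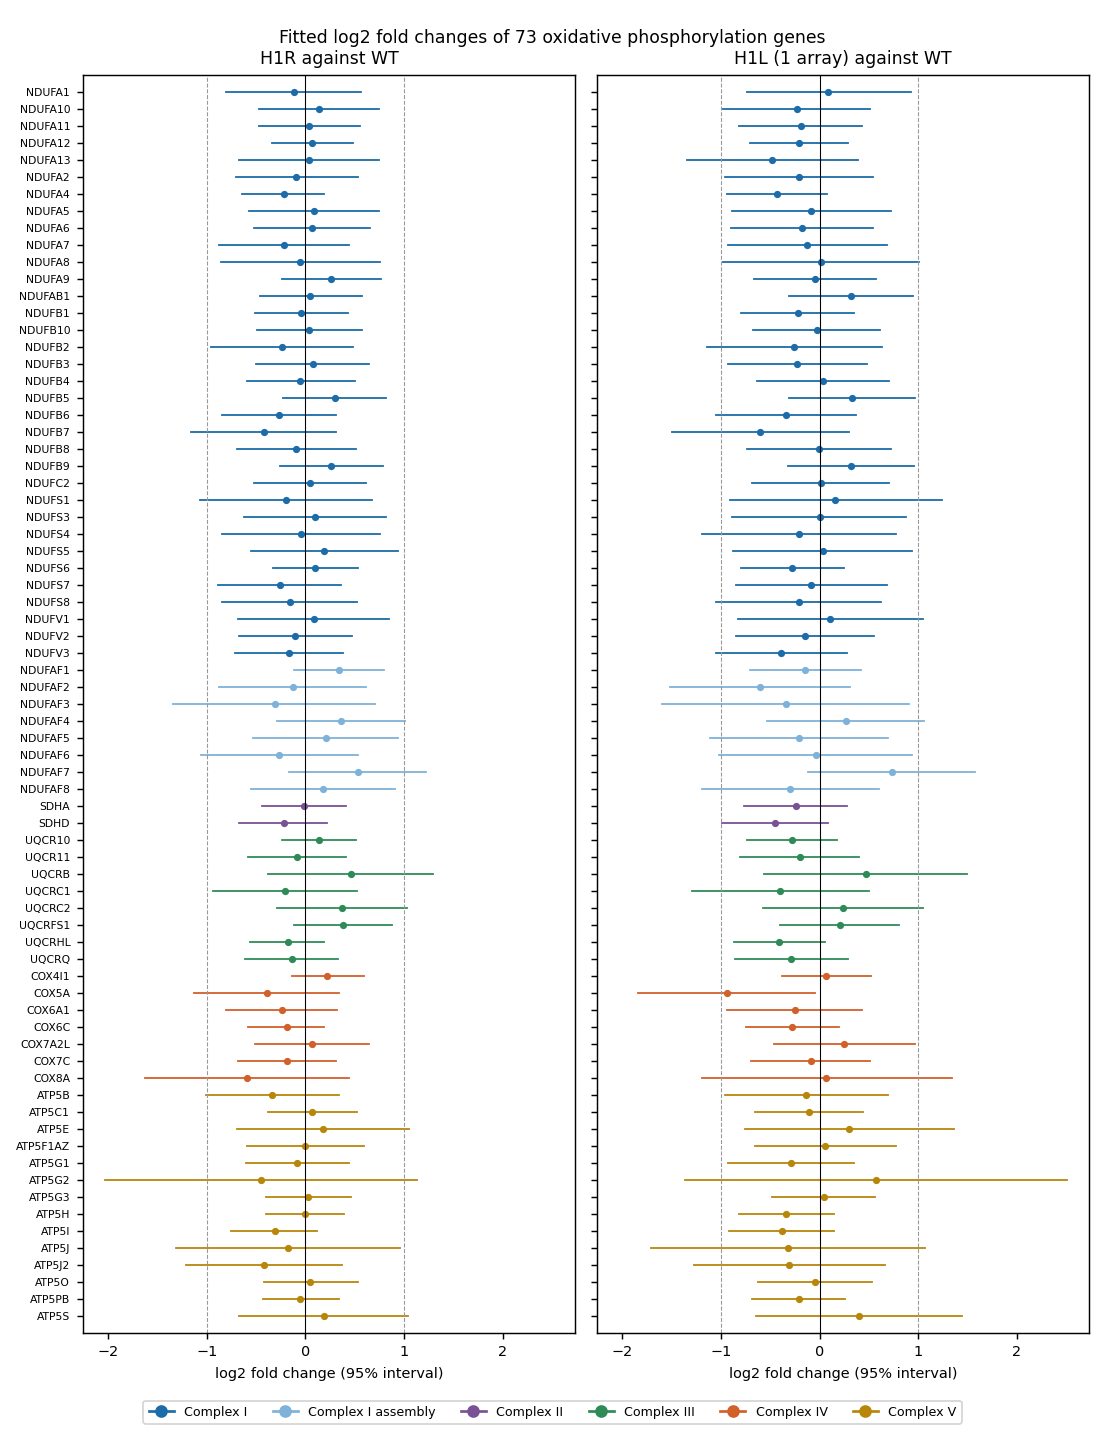
Fitted log2 fold change with its 95% interval for each of 73 genes, coloured by complex, for H1R against WT (left) and the H1L-labelled array against WT (right), with dashed lines at 1 log2 unit. All intervals on the left include 0, and COX5A is the 1 gene on the right whose interval does not.

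**Figure D3:**
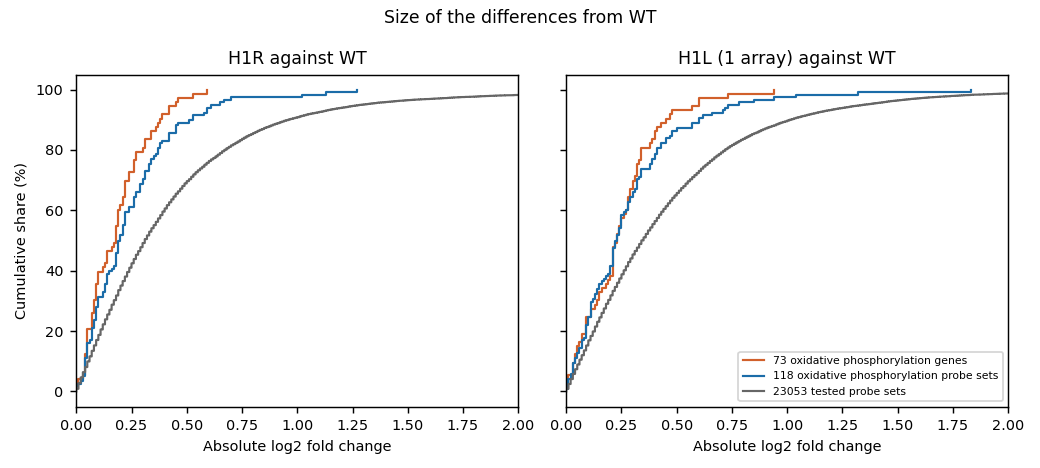
Cumulative share (%) of genes or probe sets by absolute log2 fold change, for H1R (left) and the H1L-labelled array (right) against WT. The curve of the 73 genes and that of their 118 probe sets lie left of the curve of all 23053 tested probe sets over most of the range, with medians of 0.176 and 0.311 for genes and for all probe sets in H1R. The curves are not matched for signal.

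How often the groups did not overlap was counted next. Both H1R arrays were above both WT arrays for 9 of 73 genes (12.3%), where this held for 24.9% of all tested probe sets. Both were below for 10 of 73 (13.7%), against 14.5% of all. Those above were NDUFA9, NDUFA12 and NDUFS5 of complex I, the assembly factors NDUFAF1, NDUFAF4 and NDUFAF7, UQCR10 and UQCRFS1 of complex III, and COX4I1. Those below were NDUFB6, NDUFB7, NDUFS7, NDUFV3, SDHD, UQCRHL, COX5A, COX6C, ATP5I and ATP5J2, which cover every complex. For COX6C and ATP5J2 a dimmer probe set, also above the background limit on all 5 arrays, separated the other way. That of COX6C read 79.7 and 58.9 in H1R and 55.5 and 42.8 in WT. That of ATP5J2 read 48.6 and 47.9 in H1R and 30.6 and 29.8 in WT. The H1L-labelled array was below both WT arrays for 38 of 73 genes (52.1%), against 39.1% of all, and for 30 of 73 (41.1%) against 35.7% after quantile normalization. It was above both for 11 of 73 (15.1%), against 27.5%. These shares set genes, by their brightest probe set, against all probe sets. Counted by probe set, both H1R arrays were above both WT arrays for 21 of 118 members (17.8%) and below for 13 (11%). The H1L-labelled array was below both WT arrays for 60 of 118 (50.8%) and above both for 16 (13.6%). Both deletions were set against the same WT arrays, so a shared direction in them is not independent. The share of all probe sets with every other array on the same side of WT was not counted. This limit holds for each gene named below with that pattern.

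The catalytic core of complex I carries the flavin and the iron-sulfur clusters of the electron path, and 6 of its nuclear genes were read. NDUFS1, the largest of these subunits, read 1803.3 and 3189.3 on the H1R arrays, 3084.6 on the H1L-labelled array and 1932.5 and 3919.1 in WT. Its replicates lay further apart than its groups. NDUFV1, which binds NADH and the flavin, read 623.5 and 859.3 in H1R, 742.6 on the H1L-labelled array and 537.4 and 880.1 in WT, so both WT arrays enclosed all others. NDUFS7, which holds the last cluster before ubiquinone, read 678.9 and 908.7 in H1R, 889.7 on the H1L-labelled array and 914.7 and 975.3 in WT. All 3 of the other arrays lay below WT for NDUFS7, with a log2 fold change of -0.26 ± 0.27 for H1R (standard error, as for all values after ±). NDUFS3 (0.10 ± 0.31), NDUFS8 (-0.16 ± 0.30) and NDUFV2 (-0.10 ± 0.25) gave these values in H1R, and in all 3 the H1R and WT arrays overlapped. NDUFS3 read 214.1 and 289.3 in H1R, 231.2 on the H1L-labelled array and 228.6 and 235.1 in WT. NDUFS8 read 574.6 and 824 in H1R, 665.5 on the H1L-labelled array and 697.1 and 853.3 in WT. NDUFV2, which holds an iron-sulfur cluster beside the flavin, read 1314.9 and 1690.4 in H1R, 1442.7 on the H1L-labelled array and 1466 and 1751.9 in WT. The median of the 6 core genes was -0.13 in H1R and -0.04 on the H1L-labelled array. After quantile normalization these medians were -0.29 and 0.01. NDUFS1 enters them by its brightest probe set (-0.20 ± 0.38 in H1R), and a second one gave -0.15 ± 0.31. A dimmer NDUFS1 probe set, also above the limit on all 5 arrays, gave 0.67 ± 0.34. It read 177.4 and 155.8 in H1R, 123 on the H1L-labelled array and 81.6 and 128.4 in WT.

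The 28 accessory subunits of complex I, which surround the core and stabilise it, had a median log2 fold change of 0.04 in H1R, or -0.10 after quantile normalization, and -0.19 on the H1L-labelled array, or -0.08 after it. NDUFA8, an accessory subunit on the side of the intermembrane space, read 1084.2 and 2161.1 on the H1R arrays, 1602.3 on the H1L-labelled array and 1345.2 and 1873.5 in WT, so the H1R replicates enclosed all other arrays. NDUFA9 read 1825.9 and 1996.2 in H1R, 1536.3 on the H1L-labelled array and 1618.6 and 1560.9 in WT, with H1R above WT on both dates (log2 fold change 0.26 ± 0.22). NDUFB7, another accessory subunit, had the lowest fold change of the complex in H1R by brightest probe set. It read 544.1 and 578.8 in H1R, 497.2 on the H1L-labelled array and 970.3 and 587.3 in WT, a log2 fold change of -0.42 ± 0.32 and -0.60 ± 0.39. The difference rested on replicate 1 of WT, since replicate 2 lay close to the others. NDUFA4, named for complex I and since placed in complex IV, was counted by its name among these 28 genes and not in complex IV. It read 6568.9 and 5952.1 in H1R, 5420.8 on the H1L-labelled array and 8218.3 and 6480.5 in WT (-0.43 ± 0.22 for the H1L-labelled array, limma adjusted p = 0.80).

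The 8 NDUFAF genes, which help to build complex I and are not part of it, had a median of 0.19 in H1R. It was the highest of the groups by complex, and 0.10 after quantile normalization. All probe sets had medians of 0.09 and 0.01. The pathway lists read further below had medians from 0.04 to 0.26 in H1R. On the H1L-labelled array the median of the 8 genes was -0.18, or -0.09 after quantile normalization. With 1 array left out, the H1R median lay between 0.06 (no replicate 1 of WT) and 0.40 (no replicate 1 of H1R). That of the H1L-labelled array lay between -0.31 (no replicate 1 of WT) and -0.01 (no replicate 2 of WT). NDUFAF1 binds an early membrane intermediate of the complex. It read 3198.2 and 3428 on the H1R arrays, 2363.9 on the H1L-labelled array and 2413.7 and 2832 in WT, so that H1R stood above the rest (0.34 ± 0.20, limma adjusted p = 0.67). NDUFAF7, a mitochondrial methyltransferase, read 224.4 and 266 in H1R, 281.9 on the H1L-labelled array and 169.2 and 166.5 in WT. It was higher than WT on all 3 other arrays, with log2 fold changes of 0.53 ± 0.30 (limma adjusted p = 0.65) and 0.73 ± 0.37 (limma adjusted p = 0.80). Their 95% intervals were -0.17 to 1.22 and -0.12 to 1.58. NDUFAF4 read 818.6 and 906.4 in H1R, 806.1 on the H1L-labelled array and 566.5 and 789.4 in WT, also above WT on all 3, but its dimmer probe set with the lowest fold change gave -0.70 ± 0.44 and -0.71 ± 0.53. NDUFAF3 read 447.9 and 1230.1 in H1R, 727 on the H1L-labelled array and 830 and 1029.9 in WT, a wide spread within H1R.

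Complex II is also an enzyme of the citrate cycle, and 2 of its 4 subunits were read. SDHA, the flavoprotein that oxidises succinate, read 4397.5 and 5455.2 in H1R, 4177.2 on the H1L-labelled array and 4828.3 and 5061.6 in WT. SDHD, a membrane anchor, read 3011.4 and 2842.6 in H1R, 2496 on the H1L-labelled array and 3298.1 and 3543.8 in WT. SDHD was below WT on all 3 arrays, with -0.22 ± 0.19 in H1R and -0.45 ± 0.23 on the H1L-labelled array (limma adjusted p = 0.80 and 0.81). SDHA differed less, with -0.01 ± 0.19 and -0.24 ± 0.23. SDHB and SDHC were not analysed here.

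In complex III, UQCRFS1, the Rieske iron-sulfur protein, read 2065.4 and 2318.6 on the H1R arrays, 1937.3 on the H1L-labelled array and 1654.8 and 1704.3 in WT. All 3 arrays lay above WT, by 0.38 ± 0.21 in H1R (limma adjusted p = 0.64) and 0.21 ± 0.26. A dim second probe set of UQCRFS1 read 41.1 and 46 in H1R, 15.3 on the H1L-labelled array and 23.2 and 14.4 in WT. WT lay below the background limit there, and the H1R mean was at least 1.74-fold higher. That difference did not pass (1.02 ± 0.40, limma adjusted p = 0.43). UQCRC1, a core protein of the complex, read 2414 and 4800.7 in H1R, 2987.1 on the H1L-labelled array and 4404.9 and 3512.3 in WT, and here too the H1R replicates enclosed the rest. UQCRHL, which resembles the hinge protein at the cytochrome c docking site, read 5775.5 and 5305 in H1R, 4726.3 on the H1L-labelled array and 6354 and 6207.9 in WT. It was below WT on all 3 arrays, by a log2 fold change of -0.18 ± 0.16 and -0.41 ± 0.20 (limma adjusted p = 0.81 and 0.78). UQCRB read 250.7 and 460.7 in H1R, 342.2 on the H1L-labelled array and 225.2 and 267 in WT. The group thus held members on both sides, and CYC1, the cytochrome c1 gene, was not analysed here.

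Complex IV gave the lowest median of H1R, -0.20, with 5 of 7 genes below 0, where 9565 of all 23053 tested probe sets lay below 0. After quantile normalization the median was -0.30, against 0.01 for all probe sets. Its sign turned in 1 of 13 settings. Without replicate 1 of H1R, the array with the highest actin ratio, the median was 0.06. COX8A, a small subunit, read 303.8 and 785.1 in H1R, 778.8 on the H1L-labelled array and 609.8 and 898 in WT, and it was low on that 1 array alone (-0.59 ± 0.45). The part of RNA quality in these values was not tested. COX4I1, which joins the catalytic COX1 subunit early in assembly, read 6940.4 and 7931.6 in H1R, 6664.9 on the H1L-labelled array and 6217.1 and 6485 in WT, above WT on all 3 arrays (0.22 ± 0.16 and 0.07 ± 0.20). COX7A2L, which helps complexes III and IV to join, had the highest fold change of complex IV for the H1L-labelled array, 0.25 ± 0.31. It read 2149.9 and 2985.2 in H1R, 2874.5 on the H1L-labelled array and 2077.4 and 2797.1 in WT. A dimmer probe set of COX6C had the highest of the complex in H1R, 0.45 ± 0.34, where the brightest gave -0.19 ± 0.17. Of the isoforms that mammals restrict to certain tissues, such as COX4I2 and COX6A2, none was among the members.

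COX5A, which belongs to the matrix side of complex IV, differed most from WT of any gene by its brightest probe set, and it is singled out after its values were seen. It read 139.1 and 159.3 in H1R, 99.8 on the H1L-labelled array and 173.3 and 225.1 in WT. All 3 arrays lay below WT and the H1L-labelled array lay lowest. The log2 fold change was -0.39 ± 0.32 in H1R and -0.94 ± 0.39 on the H1L-labelled array, with a 95% interval of -1.84 to -0.05 for the H1L label (limma adjusted p = 0.71). A second, dimmer probe set of COX5A read 85.7 and 31.9 in H1R, 26.5 on the H1L-labelled array and 78.6 and 46.7 in WT, with -1.04 ± 0.59 for the H1L-labelled array. Under 13 other settings the brightest probe set stayed between -1.13 and -0.76 for the H1L-labelled array, with a lowest limma adjusted p = 0.26.

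**Figure D4:**
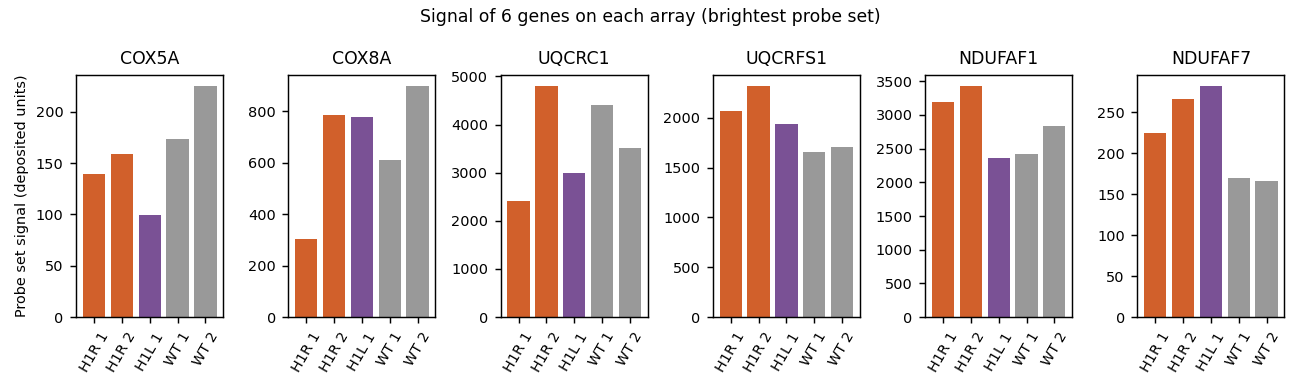
Signal (deposited units) of 6 genes on each array, by the brightest probe set, with H1R in orange, the H1L-labelled array in purple and WT in grey. COX5A is lowest on the H1L-labelled array, NDUFAF7 and UQCRFS1 are higher than WT on the other 3 arrays, and COX8A and UQCRC1 differ most between the replicates of H1R.

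Complex V, the ATP synthase, was counted by name as the 14 ATP5 genes, and whether each encodes a subunit was not checked. They had a median log2 fold change of -0.03 in H1R and of -0.13 on the H1L-labelled array, which became 0.01 after quantile normalization. ATP5B, the catalytic subunit, read 2576.8 and 4424.1 in H1R, 3875.1 on the H1L-labelled array and 3574 and 5086.3 in WT. ATP5F1AZ, an alpha subunit, read 2469.5 and 3159.5 in H1R, 2900.7 on the H1L-labelled array and 2284.5 and 3403.6 in WT. For both genes the WT arrays of the 2 dates lay further apart than the group means. ATP5I, a membrane subunit, read 3018.4 and 3309.2 in H1R, 3008.7 on the H1L-labelled array and 3708 and 4166.7 in WT, below WT on all 3 (-0.31 ± 0.19 and -0.38 ± 0.23, limma adjusted p = 0.68 and 0.85). ATP5G2 read 2.4 and 26.5 in H1R, 27.5 on the H1L-labelled array and 13.7 and 19.8 in WT, and exceeded the limit on 1 array.

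Probe sets of the same gene did not always give the same value. Of 29 genes with several tested probe sets, 9 had probe sets whose log2 fold changes differed by more than 1 in some comparison: NDUFA7, NDUFA12, NDUFAF4, NDUFB2, NDUFB3, NDUFB4, UQCRFS1, ATP5C1 and ATP5J2. Among the 18 genes with several probe sets above the limit on all 5 arrays there were 2, NDUFB3 and ATP5J2. A probe set of ATP5J2 read 64.2 and 40.9 in H1R, 14.9 on the H1L-labelled array and 58.4 and 36.2 in WT. The H1L-labelled array lay at least 2-fold below the WT mean, a difference that did not pass. The brightest probe set gave -0.31 ± 0.42. A dim probe set of NDUFB4 read 3.6 on the H1L-labelled array and 30.7 and 25.6 in WT, at least 1.22-fold below the WT mean. That difference did not pass either. The brightest probe set of NDUFB4 gave 0.03 ± 0.29. A dim probe set of NDUFA7 read 5.7 and 14.2 in H1R, 30.9 on the H1L-labelled array and 21 and 36.2 in WT. Both H1R arrays and replicate 1 of WT lay below their background limits there, so no lower bound can be given. The brightest probe set of NDUFA7 gave -0.22 ± 0.29 in H1R. A dim probe set of NDUFA12 read 28.5 and 35.8 in H1R, 22.3 on the H1L-labelled array and 12.6 and 7.3 in WT. The H1R mean was at least 1.28-fold higher than that of WT. Replicate 1 of H1R lay below the limit of 29.2 on replicate 1 of WT. The fitted difference did not pass (1.27 ± 0.45, limma adjusted p = 0.36), and the brightest probe set gave 0.07 ± 0.18. The largest differences among the members were thus read by dimmer probe sets, and the brightest ones of the same genes gave smaller values.

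Pairs of arrays showed how the genotypes compare with the dates. Replicate 2 of H1R exceeded replicate 1 for 62 of 73 genes, with a median log2 difference of 0.32, and replicate 2 of WT exceeded replicate 1 for 58, with 0.24. All probe sets had medians of 0.175 for H1R and 0.195 for WT, so much of this shift was shared by the whole array. How many of all probe sets were higher in 1 array of a pair was not counted. The median absolute difference between replicates was 0.329 for H1R and 0.283 for WT. Within a date it was 0.192 for H1R against WT on the first and 0.153 on the second. Over all probe sets it was 0.384 and 0.391 between replicates, and 0.414 and 0.348 within the dates. On the deposited scale, H1R and WT of 1 date thus lay closer in these 73 genes than replicates of different dates. After quantile normalization this held for the second date (0.15) and not for the first (0.267), against 0.221 between the H1R and 0.16 between the WT replicates. Signed, H1R minus WT had a median of -0.09 on the first date and 0.00 (-0.00404) on the second, where all probe sets had 0.09 and 0.08. After quantile normalization the medians were -0.24 and -0.07, against 0.01 and 0.01 for all, and H1R was higher for 16 of 73 genes on the first date and for 31 on the second.

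On the second date the H1L-labelled array was higher than WT for 13 of 73 genes, with a median log2 difference of -0.24, and all probe sets had one of -0.17. After quantile normalization it was higher for 37 of 73 genes, with a median of 0.01. As deposited, the median absolute difference of the H1L-labelled array was 0.275 from WT and 0.24 from H1R of its own date. From WT and H1R of the first date it was 0.251 and 0.248, so its own date did not stand closer throughout. After quantile normalization the values were 0.146 and 0.133 within its date, and 0.238 and 0.249 across dates. The replicates of H1R kept a median difference of 0.16 after quantile normalization, with 50 of 73 genes higher in replicate 2, while those of WT had -0.04.

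**Figure D5:**
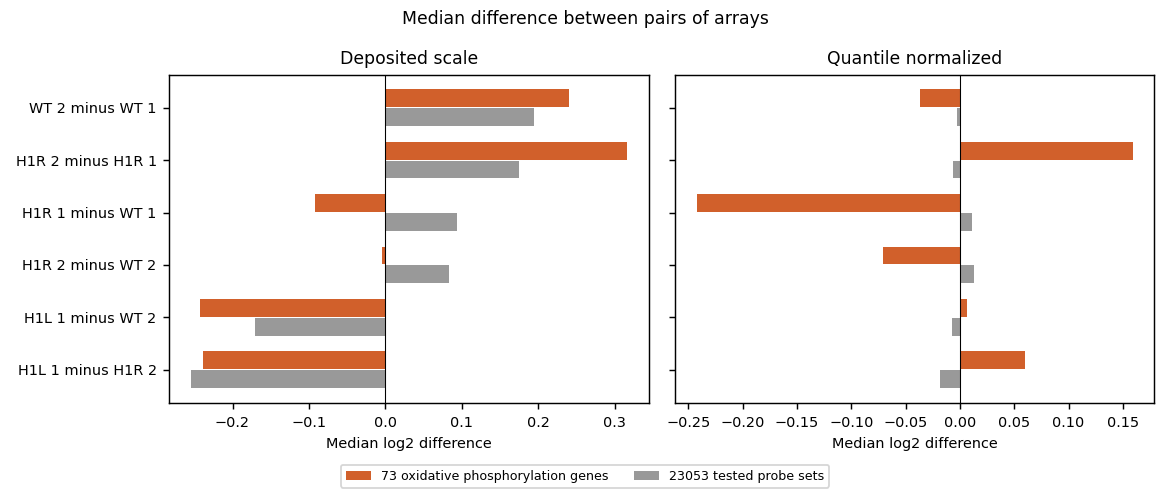
Median log2 difference between pairs of arrays for the 73 genes (orange) and all 23053 tested probe sets (grey), as deposited (left) and after quantile normalization (right, on its own axis). The bars above 0 as deposited are largest between replicates of 1 genotype (0.32 for H1R and 0.24 for WT), and after normalization the H1R array of the first date stands lowest against WT.

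Other genes of the pathway were read from lists. Of 39 tested assembly factors outside the NDUFAF names, 0 passed in H1R and 4 had an unadjusted p below 0.05, all higher, a share near the 10.2% of all probe sets. They were NUBPL, which inserts iron-sulfur clusters into complex I, LYRM7, which escorts the Rieske protein, COX20, which escorts the COX2 subunit, and CMC1, which binds newly made COX1. CMC1 read 1295.7 and 1758.4 in H1R, 763.2 on the H1L-labelled array and 692 and 708.4 in WT. It stood higher in H1R than on the other 3 arrays, by a log2 fold change of 1.10 ± 0.27 against WT (limma adjusted p = 0.14). With the date code as a block the same fold change passed (1.10 ± 0.20, limma adjusted p = 0.015). LYRM7 read 290 and 294.2 in H1R, 183.1 on the H1L-labelled array and 157.2 and 166 in WT (0.83 ± 0.30, limma adjusted p = 0.36).

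Among 15 tested genes of ubiquinone synthesis and electron carriage, 0 passed and 2 had an unadjusted p below 0.05 in H1R, COQ8A and COQ10B, both higher. Over all probe sets the shares were 1.17% and 10.2%, which is also the background of the next lists. COQ10B, a ubiquinone-binding protein, read 247.1 and 146.8 in H1R, 144.7 on the H1L-labelled array and 63.8 and 85.2 in WT (1.30 ± 0.36, limma adjusted p = 0.21). CYCS, cytochrome c itself, read 6442.7 and 6977.9 in H1R, 5899.7 on the H1L-labelled array and 5270.4 and 7080.8 in WT, which enclosed all others (0.13 ± 0.19 in H1R). Of 65 mitochondrial ribosomal proteins, which translate the subunits encoded in mitochondrial DNA, 0 passed and 5 had an unadjusted p below 0.05, with a median of 0.16 in H1R (0.03 after quantile normalization). Of 21 genes of mitochondrial transcription and biogenesis 0 passed, and GABPA, a transcription factor of respiratory genes, had the 1 unadjusted p below 0.05 (0.58 ± 0.24, limma adjusted p = 0.47). None of the 7 tested genes listed under adenine nucleotide and phosphate transport had one. These were SLC25A3, SLC25A4, SLC25A5, SLC25A6, VDAC2, VDAC3 and ATPIF1. The 13 genes in mitochondrial DNA were not analysed here.

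On the H1L-labelled array 0 genes of these lists passed, where 0.200% of all probe sets did. An unadjusted p below 0.05 was found for SDHAF1 among the 39 assembly factors, COQ3 and DHODH among the 15 ubiquinone and carrier genes, and MRPL3 and MRPS25 among the 65 mitochondrial ribosomal proteins, against 6.89% of all probe sets. All were higher than WT except MRPS25. The median log2 fold changes there were 0.10 for the assembly factors, 0.12 for ubiquinone and electron carriers and -0.04 for the transport list. They were -0.01 for biogenesis and -0.06 for the mitochondrial ribosomal proteins. In the RefSeq annotation of the GRCg7b assembly, 73 of the 74 members were found by gene identifier. No pair of these lay within 3 protein-coding genes of each other.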

How the data were processed

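GCOS was used by the authors, per the submitters' processing notes, to compute the deposited probe set intensity, which is linear. Its version, its scaling target and its detection calls are not given in the sources used here. Groups and replicate numbers came from the sample titles. Without the 96 control probe sets, signals were raised by 6 (the 25th percentile of all signals) and log2-transformed, which understates differences of dim probe sets. The tests covered probe sets whose mean signal exceeded 13.4, the 40th percentile.

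The fit used limma 3.58.1 under R 4.3.3 on all 5 arrays, with a term for each group and eBayes with a trend (2 residual and 6.04 prior degrees of freedom). The test of the H1L-labelled array assumes that it varies like the other groups. P-values were adjusted over all 23053 tested probe sets by the Benjamini-Hochberg method, with 0.05 as threshold, and the code was tested on simulated data. The number of arrays limits the precision. No array repeated another, since any 2 shared at most 0.859% of identical signals.

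Replicates of H1R and WT with the same number share a date code. Their departures from the group means had a correlation of 0.192 over all probe sets. Over the member genes it was higher, 0.386, or 0.41 after quantile normalization. A fit with the date code as a replicate block was therefore run as an alternative (1 residual and 8.32 prior degrees of freedom). Standard errors and intervals printed for members come from the fit without this block. With it, each complex I core gene had a lower standard error in H1R. It was 0.16 in place of 0.38 for NDUFS1 and 0.24 in place of 0.31 for NDUFS3. Other alternatives were quantile normalization, median scaling, other pseudocounts and filters, eBayes without a trend, averaged probe sets and leaving out each array. Scaling to the hybridization controls and keeping only genes above the background limit were added after the data were seen.

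The members and the lists were chosen with earlier results of these data known. Genes were named by a rule: members past the threshold, the largest differences per complex and deletion, the complex I core, SDH subunits, UQCRFS1, COX4I1 and the main ATP synthase subunits, tissue-restricted isoforms, genes whose probe sets differ by more than 1 log2 unit, and genes of the pathway lists. Of these lists, those with values were chosen after the values were seen. NDUFA8, NDUFA9, NDUFA4, NDUFB7, NDUFAF1, NDUFAF3, ATP5I and COX5A were added after their values were seen. Lower bounds compare the geometric mean of the bright group with that of the dim group. Each array of the dim group enters by the higher of its background limit and its signal. These bounds are not tests. Names came from the platform's probe table. RefSeq's GRCg7b annotation held 83 genes under the naming rule, of which 73 had a member probe set by gene identifier. NDUFB7 was counted there as without one, though a probe set of that symbol is a member. The annotation was used for names and neighbours alone.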

Additional observations from a re-analysis of the deposited data

How the results depend on the processing

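In each of the 3 comparisons, 0 of the 118 member probe sets passed under any alternative run, with lowest limma adjusted p-values of 0.21 (H1R against WT), 0.26 (the H1L-labelled array against WT) and 0.43 (the H1L-labelled array against H1R), all in the fit with the date code as a replicate block. That paired fit also gave 0 members. The count over all probe sets ranged more, from 81 to 854, from 0 to 126 and from 0 to 32. Fitted values of members changed sign in 188 of 1751, 114 of 1633 and 163 of 1633 cases. For H1R against WT the median of the 73 genes ran from -0.165 without replicate 2 of H1R to 0.13 without replicate 1 of H1R. Its sign also turned without replicate 2 of WT (0.102) and with probe sets averaged (0.0522). The median was -0.116 after quantile normalization and -0.0987 after median scaling. For the H1L-labelled array against H1R it ran from -0.239 to 0.0831 when an array was left out, and was 0.108 after quantile normalization. For the H1L-labelled array against WT it stayed below 0, from -0.296 to -0.03. The SD between replicates of the members' median log2 signal was 0.154, over replicates that lie on different dates. Signal over background limits ATP5G2, ATP5J and COX7B and the dim second probe sets of other genes.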

Other observations

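A probe set assigned to both COX7A2 and TMEM30A was left out of the members because it has several symbols. It read 10.5 and 23 on the H1R arrays, 14 on the H1L-labelled array and 25.5 and 10.5 in WT, below the background limit of each array.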
